A study of Mus musculus with 6 samples.

Results

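The unexposed cortical cultures of the series are the 3 arrays whose labels call them control culture, 3 of 6 arrays in all, and they are named control 1, control 2 and control 3 here. They were chosen by those labels, and the 3 arrays of cultures exposed to terahertz radiation were not used. Each control was a primary culture of cerebral cortex from C57/B6 mouse embryos at embryonic day 16, and RNA was collected at day 12 in vitro. The cells grew on poly-D-lysine in Neurobasal medium with B27 plus, glutamine, β-mercaptoethanol, streptomycin and amphotericin B, with regular medium changes and no irradiation. The labels name no transgene, no sorting step and no agent against dividing cells, and they do not say whether the 3 cultures came from separate dissections. The spread between them may therefore be partly technical. The question put to the data was which neuronal, glial and housekeeping genes gave strong signals before any exposure, which cell markers were missing, and which genes differed between cultures that received the same treatment.

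Dissociated embryonic cortex is mostly postmitotic neurons, and in B27 medium these extend neurites and form synapses over the following weeks. The preparation also carries progenitors that can give rise to astrocytes and oligodendrocyte precursors, together with small numbers of microglia, vascular cells and meningeal fibroblasts. Such minority cells can divide, mature or die in the dish, so cultures of one kind can differ in their glia more than in their neurons.

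Levels are log2 intensity values minus the array's 75th percentile, so 0 is the 75th percentile of the probes and a step of 1 is 2-fold. A probe's signal depends on its sequence as well as on its transcript, so an order of levels across genes is an order of probe signals and not of transcript number. A probe was counted as measured where its call of well above background in the scanner output held on all 3 arrays, as was the case for 34775 of 56599 probes (61.4%). Of 20167 named genes, 15431 had such a probe (76.5%), while 3421 had no probe above background on any control array (17%). For 15424 genes the brightest probe itself passed on all 3 arrays, and the levels below refer to that probe unless another is named.

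Control 1 stood apart from controls 2 and 3. Its 75th percentile was an intensity of 320, against 465 for control 2 and 708 for control 3, and 63.3% of its probes were well above background, against 68.5% and 71.3%. The fit value of the scanner software's multiplicative trend correction was 0 for control 1, 0.038 for control 2 and 0.018 for control 3, and whether that step was applied to control 1 is not clear from the header. No spot was saturated on any of the 3 arrays, which lay side by side on 1 slide. Across the 15424 genes Pearson's r was 0.971 between controls 1 and 2, 0.963 between controls 1 and 3 and 0.992 between controls 2 and 3, and genes are not independent replicates. Controls 1 and 2 differed by more than 1 in 1871 genes and controls 1 and 3 in 2851. Controls 2 and 3 differed by that much in 332 genes (2.15%). The part of signal strength and of the trend correction in what sets control 1 apart was not tested.

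**Figure D1:**
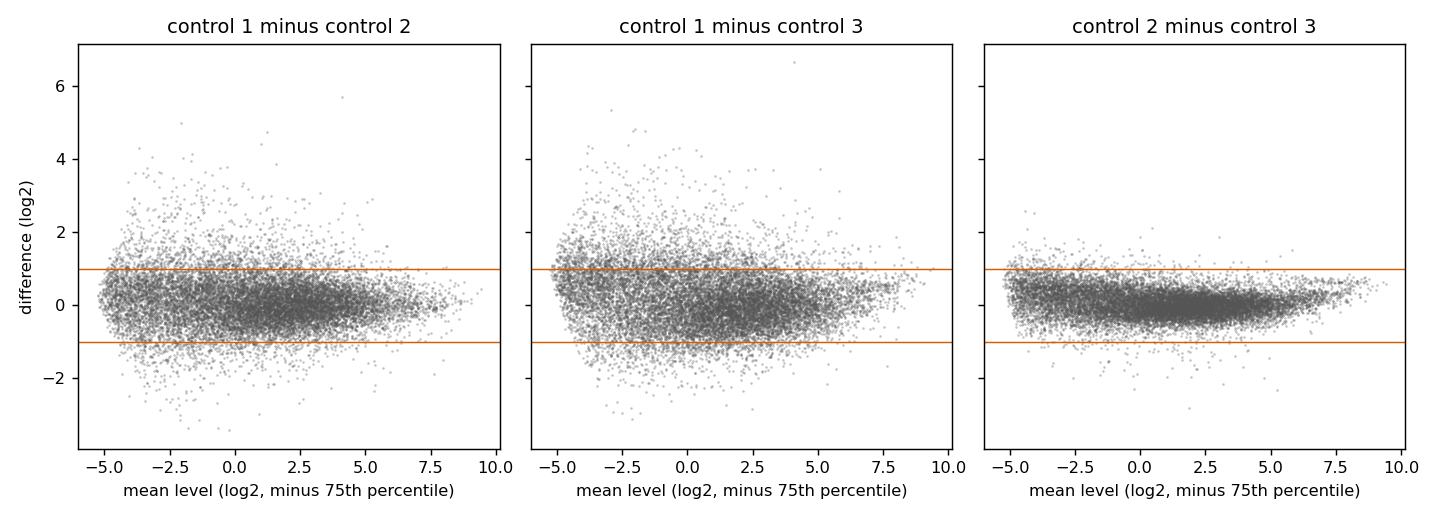
Differences in level between pairs of control cultures (log2, vertical axes) against the mean level over the 3 arrays (log2 minus the 75th percentile, horizontal axes), 1 point for each of 15424 genes; the lines mark differences of 1 and -1. The cloud is narrowest for control 2 minus control 3, where 332 genes lie outside the lines, against 2851 for control 1 minus control 3.

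The brightest signals came from the probe for Rn18s, the small-subunit ribosomal RNA, and many of the others from probes for everyday cell functions, the cytoskeleton and energy metabolism. Rn18s read 9.90, 9.47 and 8.89 in controls 1, 2 and 3. Lrrc17, a secreted leucine-rich repeat protein, came next at 9.73, 9.39 and 8.76, from the 1 probe it has on the array. Ppia, the prolyl isomerase cyclophilin A, followed at 9.29, 9.24 and 8.67, and Cox6a1, a subunit of cytochrome c oxidase, at 9.30, 9.12 and 8.71. Ubb, a ubiquitin gene, averaged 8.89 ± 0.33 (SD, n = 3), and Aldoa, a glycolytic aldolase, 8.79 ± 0.53. Actb, cytoplasmic β-actin, averaged 8.68 ± 0.23, and Cpe, the carboxypeptidase that trims neuropeptide precursors, 8.61 ± 0.13. The tubulin genes Tubb2a and Tuba1b stood at 8.44 ± 0.20 and 8.43 ± 0.42. The remaining members of the 20 brightest named genes were Exosc2, Rpl41, Elk1, Furin, Kctd14, Pirb, Slc10a1, Zfp628, Glrx2 and Ttc38, and the whole set lay between 8.43 and 9.42. All 20 were lowest in control 3 and 17 were highest in control 1, against 41.6% and 46.8% of the 15424 genes, and after quantile normalisation their ranges between cultures were at most 0.55.

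Several of these bright genes are not usual neuronal transcripts, and their probes share short runs of bases. The search for such runs was made after the bright probes had been seen, and it describes probe sequences only. Among the 100 brightest probes, the 12-base run carried by most probes was taken 6 times in turn, each time from the probes still left. The 6 runs occur in 51 probes of the array, 30 of them among the 100 brightest, and in the brightest probe of 31 of 20167 named genes, 7 of which are among the 20 brightest. A first search with 16 bases and 3 runs had found 25 probes, 16 of them among the 100 brightest. Most of the probes below are shown because genes with no shared role carry the same letters. The Gapdh and Gm5523 probes are different, since they also match in the bases just before the run. The capitals mark the shared run, with bases of the deposited probe around it.
Pirb: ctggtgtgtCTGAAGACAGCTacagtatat
Furin: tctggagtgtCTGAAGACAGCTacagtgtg
Milr1: ctggcgcatCTGAAGACAGCTacagtgtat
Elk1: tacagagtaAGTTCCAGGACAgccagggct
Kctd14: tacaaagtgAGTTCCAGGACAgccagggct
Glrx2: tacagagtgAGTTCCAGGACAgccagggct
Ttc38: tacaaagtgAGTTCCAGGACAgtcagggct
Exosc2: ccacatggtGGCTCACAACCAtccgttacg
Gapdh: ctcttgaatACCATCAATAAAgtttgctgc
Gm5523: ctctcttgaatACCATCAATAAAtttcgtt

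The run CTGAAGACAGCT was found in 20 probes, 11 of them among the 100 brightest, and the other 9 had a median level of 6.95. Its reverse complement AGCTGTCTTCAG was found in 2 probes, whose median level was -2.77. All probes outside the 100 brightest had a median of -3.39. The run AGTTCCAGGACA was found in 11 probes, and the 6 outside the 100 brightest spread from -3.41 to 6.99, so that run alone did not mark a bright probe. Both sequences resemble parts of the mouse short interspersed repeats B2 and B1, a statement from general knowledge of those repeats that was not tested here, since no repeat annotation was used. The run ACCATCAATAAA was held by the Gapdh probe and by that of Gm5523, a predicted gene, and their signals cannot be told apart where transcripts share bases.

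**Figure D2:**
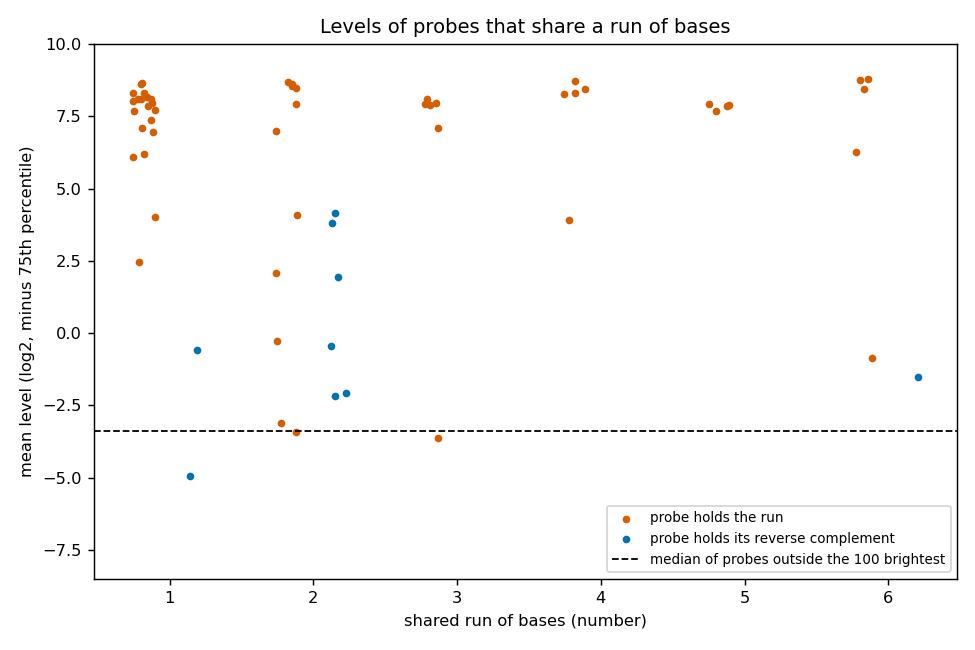
Mean level over the 3 control arrays (log2 minus the 75th percentile, vertical axis) of each probe that holds 1 of the 6 shared runs of 12 bases (horizontal axis, by number), with probes that hold the reverse complement in blue. For the first run 20 probes hold it as printed and 2 hold the reverse complement, and the dashed line is the median of -3.39 of probes outside the 100 brightest.

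Other probes of the same genes gave far lower signals. Pirb encodes an inhibitory immunoglobulin-like receptor, and its brightest probe (mm9 chr7:3663046-3663105) averaged 8.61, while its other probes averaged -5.23, above background on 1 array, and -6.49, above background on none. Elk1 encodes a transcription factor of the serum response pathway, and its probe at mm9 chrX:20510521-20510580 averaged 8.68, against -2.70 and -6.92 for the others. Slc10a1, a bile acid carrier of liver, averaged 8.57 from a probe with none of the 6 runs, and its other probe averaged -7.33 and was above background on no array. Furin, a proprotein protease, averaged 8.64 and 2.08 from its 2 probes. The levels of these genes thus differed between probes. So did those of housekeeping genes: Ubb averaged 8.89 and 8.38 on its probes, Ppia 9.06 and 7.77, and Rpl41, a ribosomal protein gene, 8.74, 6.88 and 0.07. The 7 probes of Gapdh averaged from 4.22 to 8.31.

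Neuronal genes gave strong signals throughout. All 28 pan-neuronal genes were well above background on all 3 arrays, and their median level was 5.83, beside 0.90 over all 15424 genes. Tuba1a, a tubulin of growing neurons, read 8.42, 8.62 and 8.04 in controls 1, 2 and 3. Stmn3, a microtubule regulator, read 8.04, 8.73 and 8.11, and Uchl1, a neuronal ubiquitin hydrolase, 7.93, 8.34 and 7.86. Tubb3, the neuron-specific β-tubulin, averaged 5.62 ± 0.49 (SD, n = 3), Map2, the dendritic microtubule protein, 5.55 ± 0.37, and Rbfox3, which encodes the NeuN antigen, 5.35 ± 0.10. The lowest of the list was Dcx, a marker of immature neurons, at 0.57, 1.93 and 2.24. Only Dcx and Eno2, neuronal enolase, had a range between cultures above 1, that is 2 of 28 against 21.9% of all measured genes. All of the list but Dcx were among the 3856 genes with the highest levels, of which 9.70% had such a range. The count therefore does not set these genes apart from other bright genes. After quantile normalisation 5 of the 28 had a range above 1, against 21.5% of all measured genes. No gene of the list differed by more than 1 between controls 2 and 3. Map2 has 7 probes whose means ran from -1.69 to 5.55. These counts rest on the brightest probe of each gene. Some dimmer probes varied more, with ranges of 2.55 for Map2, 2.29 for Stmn2, 2.35 for Ncam1 and 2.04 for Rbfox3. Each of those was lowest in control 1. Others were even, with ranges of 0.19 for Stmn3, 0.27 for Mapt and 0.15 for a further Rbfox3 probe.

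Genes of the synapse were also measured in full. All 24 presynaptic genes passed on all 3 arrays, with a median level of 4.83, and all 26 postsynaptic genes, with a median of 2.87. Rab3a, a GTPase of synaptic vesicles, averaged 7.01 ± 0.11 (SD, n = 3). Syn2, a synapsin that tethers vesicles, read 6.97, 7.03 and 7.0, and Syt1, the calcium sensor of release, 6.59, 6.05 and 6.13. On these brightest probes Syn2 was nearly equal in the 3 cultures, while Syt1 was highest in control 1. The other Syt1 probes were lowest in control 1, at -0.34, 1.17 and 0.80 and at -3.50, -2.26 and -2.56. The other Syn2 probes had ranges of 0.71 and 0.47. The order of cultures for Syt1 thus differed between probes. Among postsynaptic genes Camk2b and Camk2a, subunits of the calcium-dependent kinase of the postsynaptic density, averaged 6.83 ± 0.16 and 6.57 ± 0.30, and the adhesion protein gene Nlgn2 5.78 ± 0.17. In each list 3 genes had a range above 1, against 21.9% of all measured genes and 9.70% of the 3856 with the highest levels. None in either list differed by more than 1 between controls 2 and 3, against 2.15% of all measured genes.

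Markers of both transmitter classes were present. Slc17a7, the vesicular glutamate transporter of cortical excitatory neurons, read 2.00, 2.24 and 2.49, and Slc17a6, its subcortical relative, -1.15, -0.96 and -0.48. On the inhibitory side Slc32a1, the vesicular GABA transporter, averaged 6.73 ± 0.28 (SD, n = 3), Gad1 4.96 ± 0.29 and Gad2, the other GABA-synthesising enzyme, 3.85 ± 0.07. These values come from different probes and do not give a ratio of cell types. All 26 inhibitory genes passed on all 3 arrays with a median level of 2.66, and 19 of 20 excitatory and layer genes with a median of 1.67; Foxp2, a factor of deep-layer neurons, was well above background on none of the arrays. In the inhibitory list 10 of the 26 genes had a range above 1, against 21.9% of all measured genes. Cck, a peptide gene and the brightest of the list, read 7.76, 7.19 and 7.26. Sst, somatostatin, read 6.20, 5.63 and 4.27, and Pvalb, parvalbumin, 5.92, 3.40 and 3.04. Control 1 was highest for both. Over the 26 inhibitory genes, however, control 1 was the highest in 12 and the lowest in 13. The shares over all measured genes were 46.8% and 37.9%. In the excitatory list the brightest members were Lmo4, at 4.24, 5.36 and 5.37, Nr2f1 and Mef2c, all transcriptional regulators of cortical identity. Neurod1, a proneural factor, read 0.33, 2.12 and 2.56, and Bhlhe22, another cortical factor, 0.84, 2.61 and 2.76. Control 1 was the lowest of the 3 in 12 of the 19 measured excitatory genes, against 37.9% of all measured genes. A range above 1 was seen in 8 of the 19, against 21.9%. None of the 19 differed by more than 1 between controls 2 and 3, against 2.15%.

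**Figure D3:**
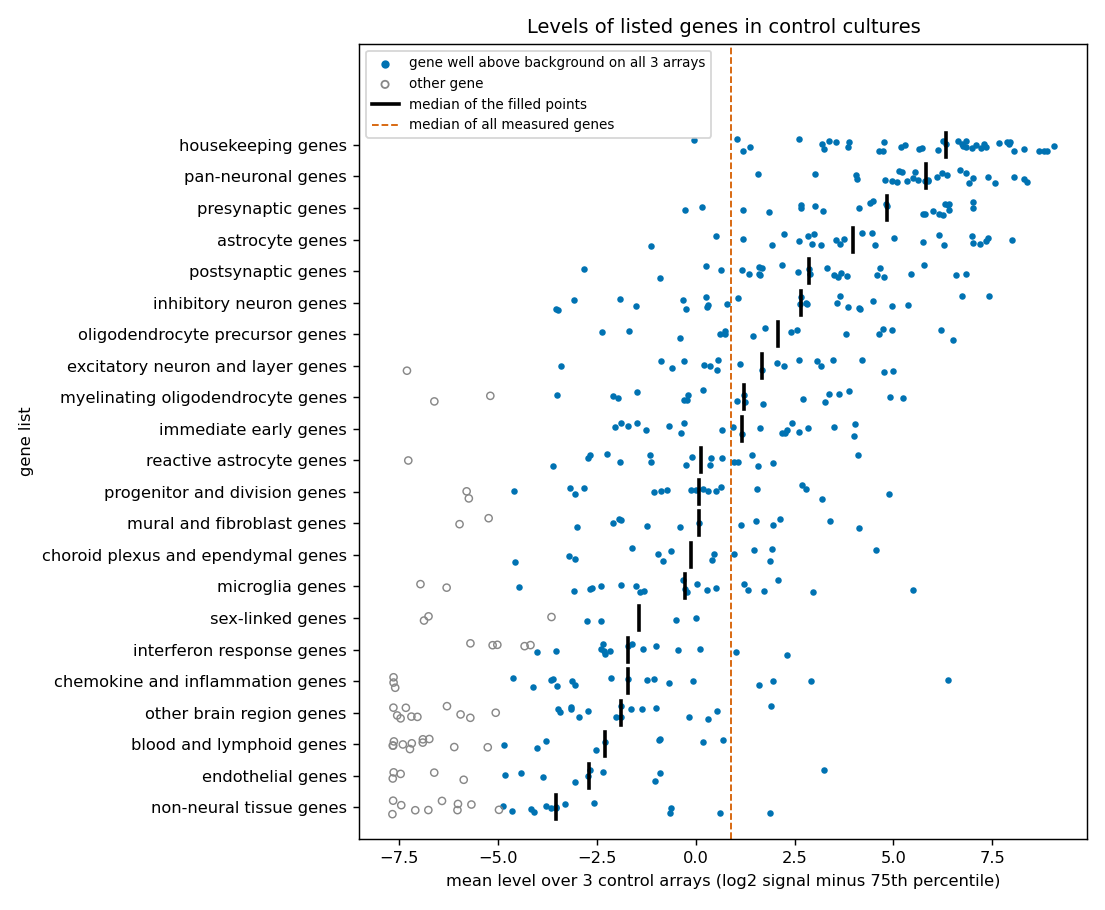
Mean level over the 3 control arrays of each gene in 22 lists (log2 minus the 75th percentile, horizontal axis), with filled points for genes whose brightest probe was well above background on all 3 arrays, open points for the others, bars for the median of the filled points and a dashed line for the median of all measured genes, 0.90. Housekeeping genes (median 6.33) and pan-neuronal genes (5.83) lie farthest right, and endothelial (-2.69) and non-neural genes (-3.53) farthest left.

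Astrocyte genes were bright and were uneven between cultures. All 26 passed on all 3 arrays, with a median level of 3.98. Apoe, the lipid carrier of glia, read 8.95, 7.93 and 7.08 in controls 1, 2 and 3. Gfap, the intermediate filament protein of astrocytes, read 6.0, 4.15 and 3.41, and Aldh1l1, a folate enzyme used as an astrocyte marker, 5.31, 3.28 and 2.09. Control 1 was the highest in 24 of the 26 genes and control 3 the lowest in 21, against 46.8% and 41.6% of all measured genes. The range exceeded 1 in 15 of the 26, against 21.9% of all measured genes. The second probe of Gfap read 5.21, 4.42 and 3.78 and that of Aldh1l1 -1.04, -3.06 and -3.82, in the same order of cultures. The second probe of Apoe varied less, at 5.58, 5.47 and 5.02. Sparcl1, a secreted synaptogenic protein, was an exception at 7.44, 7.39 and 7.33. Between controls 2 and 3 alone 1 of the 26 differed by more than 1, against 2.15% of all measured genes. In bulk RNA, fewer cells of a type and less RNA per cell cannot be told apart.

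The oligodendrocyte lineage was represented from precursor to myelin genes. All 16 precursor genes passed on all 3 arrays, with a median level of 2.08. Bcas1, of newly forming oligodendrocytes, averaged 6.51 ± 0.38 (SD, n = 3). Gpr17, a receptor of committed precursors, read 5.39, 6.60 and 6.63, and Pdgfra, the growth factor receptor of precursors, 2.21, 2.85 and 2.62. Among 21 genes of myelinating cells 19 passed on all 3 arrays, with a median of 1.24, and Opalin and Aspa passed on some. Mbp, myelin basic protein, read 3.44, 3.02 and 3.62 on its brightest probe and 2.10, -0.32 and 1.73 on another. Control 2 was therefore the low culture on both of these Mbp probes. Cldn11, the claudin of myelin, read 4.65, 2.40 and 3.80, and Cnp, a myelin phosphodiesterase, 3.66, 1.61 and 2.90. Control 2 was the lowest of the 3 in 12 of the 19 measured genes, against 20.5% of all measured genes. Control 1 was the highest in 15, against 46.8%. The range exceeded 1 in 13 of the 19, against 21.9%, and 6 of the 19 differed by more than 1 between controls 2 and 3, against 2.15%.

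Mag and Mal had the largest ranges among the measured myelin genes. Mag, a myelin adhesion protein, read 3.99, -0.77 and 0.49, a range of 4.75, but its second probe read -2.58, -1.89 and -2.71, with control 2 highest. Mal, a proteolipid of compact myelin, read 1.18, -3.82 and -3.59 from its 1 probe. Trf, transferrin, read 5.53, 2.45 and 1.84, and its second probe 4.68, 1.14 and 0.93. The order of cultures thus held across probes for Trf and not for Mag.

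Microglia genes were low in 2 of the cultures. Of 23 genes 21 passed on all 3 arrays, Gpr34 passed on control 1 only, and Spi1, the myeloid lineage factor, was well above background on none of the arrays. The median level was -0.26. Cx3cr1, the fractalkine receptor, read 1.87, -1.08 and -1.46, Trem2, a lipid receptor of microglia, 2.05, -0.71 and -1.20, and Tyrobp, its signalling partner, 1.93, -0.96 and -1.77. C1qc, a chain of complement C1q, read 2.94, -0.25 and -1.15. Fcer1g, the shared chain of immunoglobulin receptors, read 2.39, -1.39 and -1.92. P2ry12, the purine receptor of resting microglia, stayed low at -3.49, -4.84 and -5.05. A range above 1 was seen in 17 of the 21 measured genes, against 21.9% of all measured genes. Without control 1, 3 of the 21 differed by more than 1, against 2.15%. Control 1 was the highest in 18 of the 21 and control 3 the lowest in 18, against 46.8% and 41.6%. Siglech and Itgam, the brightest of the list at 5.50 ± 0.48 (SD, n = 3) and 2.97 ± 0.18, did not follow that order. Siglech's other probes averaged 1.11 and -7.52, so its level too differed between probes.

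Endothelial markers were weak. Of 15 endothelial genes 10 passed on all 3 arrays, with a median of -2.69, and 4 passed on none, against 76.5% and 17% of named genes. Cldn5, the tight junction claudin of brain vessels, Tek and Tie1, the angiopoietin receptor pair, and Erg, an endothelial factor, were well above background on none of the arrays. Pecam1, an endothelial adhesion protein, read -2.40, -2.46 and -3.13. Egfl7, secreted by endothelium, was the exception at 3.25 ± 0.17 (SD, n = 3). Mural and fibroblast genes had a median of 0.08, with 13 of 15 above background on all 3 arrays. Igfbp2, a binding protein of insulin-like growth factors, read 5.44, 3.70 and 3.24, and Acta2, smooth muscle actin, 2.92, 3.52 and 3.78. Another measured probe of Acta2 had a different order, at 0.81, -1.66 and -1.54. Col1a1, a fibrillar collagen, read -0.01, -0.08 and -1.10. A range above 1 was seen in 11 of the 13 measured genes, against 21.9% of all measured genes. Without control 1, 5 of the 13 differed by more than 1, against 2.15%.

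Genes of choroid plexus, ependymal and dividing cells gave a signal. All 14 choroid plexus and ependymal genes passed on all 3 arrays, with a median level of -0.11, and Ttr, the thyroid hormone carrier of the choroid plexus, read 4.60, 4.83 and 4.25. Vim, a filament protein of progenitors and astrocytes, read 5.85, 4.76 and 4.09, and Nes, nestin, averaged 3.20 ± 0.35 (SD, n = 3). Mki67, a protein of dividing cells, read 1.44, 0.26 and 0.25. Of 20 progenitor and division genes 18 passed on all 3 arrays. Control 1 was the highest in 14 of those 18, against 46.8% of all measured genes. Eomes, of intermediate progenitors, and Prom1 passed on 1 array each.

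Genes that mark other tissues or other brain regions were mostly dim, but many were still well above background. On all 3 arrays 9 of 20 blood and lymphoid, 16 of 26 other-region and 14 of 24 non-neural genes passed, against 76.5% of named genes. A pass alone therefore did not show a cell type to be present. Of 20 blood and lymphoid genes 10 were well above background on none of the arrays, against 17% of named genes. Among these were Hbb-b1, Hbb-y, Hba-x, Alas2 and Cd3g, of red cells and T cells, and Hbb-b1, adult β-globin, read -7.24, -7.18 and -6.25. Of 26 genes of other brain regions 9 were not above background, among them Slc6a4 and En1 of brainstem neurons, Hoxa5 and Hoxb5 of hindbrain and spinal cord, Gabra6 of cerebellar granule cells and Pmch of the hypothalamus. Of 24 genes of non-neural tissues 7 were not above background, among them Apoa1, Ckm, Umod, Prm1, Cga and Cpa1. A few markers of this kind gave signals near or above the 75th percentile. Cd4, a T cell co-receptor, averaged 0.70 ± 0.56 (SD, n = 3), but its other probes averaged -5.00 and -6.90. Cd3e, a chain of the T cell receptor complex, averaged 0.19 ± 0.84, with -2.73 on its other probe. Myh7, a cardiac myosin, averaged 0.61 ± 0.32, with -7.26 on its other probe. Apoa2, an apolipoprotein of liver, averaged 1.88 ± 0.32, with -0.89 on its other probe. Drd1, a dopamine receptor of striatal neurons, read 1.12, -0.06 and 0.54, and Pomc, a hypothalamic peptide precursor, 0.26, 0.50 and 0.16. Ppp1r1b, the dopamine-regulated phosphatase inhibitor of striatal neurons, averaged 1.90 ± 0.26, and Th, the enzyme of catecholamine synthesis, -0.18 ± 0.63, with its other probe not above background.

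Some housekeeping genes differed between the cultures and others were even. All 41 passed on all 3 arrays, with a median level of 6.33. Gapdh, a glycolytic enzyme, read 8.72, 8.43 and 7.77 on its brightest probe, which holds a run shared with Gm5523. Gapdh probes at 3.70, 4.51 and 4.46 and at 4.74, 5.18 and 5.02 were lowest in control 1, and the remaining ones were highest there. Pgk1, the enzyme of the following step, read 8.33, 7.74 and 7.57. Hprt, a purine salvage enzyme, read 5.15, 5.14 and 5.32, and Tbp, the TATA-binding protein, -0.04, -0.12 and 0.01, both within 0.18. The other Tbp probes had ranges of 0.77 and 1.01 and were lowest in control 1. Control 3 was the lowest in 26 of the 41, against 41.6% of all measured genes. A range above 1 was seen in 5, against 21.9% of all measured genes and 9.70% of the 3856 with the highest levels. After quantile normalisation 1 of the 41 had a range above 1, and the median deviation of the list in control 3 went from -0.17 to 0.04. The direction of that list in control 3 therefore changed with the scaling.

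Across all measured genes the range between the 3 cultures exceeded 1 in 3379 of 15424 (21.9%), and in 3312 (21.5%) after quantile normalisation of the same probes. The median SD between cultures was 0.315. For the 298 probes that are printed in 10 spots and were measured on all 3 arrays, the median SD between spots of 1 array was 0.023, 0.025 and 0.015 in controls 1, 2 and 3, against 0.214 between cultures. The share with a range above 1 was 36.6% among the 3856 genes with the lowest levels and 9.70% among the 3856 with the highest. Among the lowest the median deviation was 0.20 in control 1 and -0.23 in control 3. Among the 3379 genes control 1 was the highest in 2149 and the lowest in 1090. For genes with several measured probes, the other probes of the variable genes had a range above 1 in 40.6% of 1809 cases and peaked in the same culture in 63.6%. For the other probes of the remaining genes these shares were 23.6% and 46.8%.

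The 20 most variable named genes with a mean level above 0 ranged over 3.14 to 6.65, and all 20 were highest in control 1. Control 3 was the lowest in 17 of them. Some of them, such as Ctss, Trem2, C1qc and Apoc1, had a mean above 0 through control 1 alone, so this count describes the set as chosen and supports nothing. The 10 most variable members of the gene lists, chosen with no limit on the mean, were highest in control 1 as well. Lcn2, the iron-siderophore binding protein lipocalin 2, led with 8.21, 2.52 and 1.56, a 101-fold range, and its second probe read 5.60, 0.56 and -0.08. C3, the central complement protein, read 4.11, 0.25 and 0.43, with 2.95, 0.02 and -0.07 on its second probe. Both genes are used as markers of reactive astrocytes. Lyz2, lysozyme of myeloid cells, read 4.79, 1.88 and 1.06, and Ctss, a lysosomal protease of microglia, 2.50, -0.75 and -0.89. Apoc1, a lipid carrier protein, read 2.87, -0.48 and -1.40. Timp1, an inhibitor of matrix proteases, read 3.23, 0.25 and -0.30. Pthlh, a parathyroid hormone-like peptide, read 3.32, -1.11 and 0.85, one of 3 genes of the set that were lowest in control 2. The set also held Mag, C1qc, Ifitm3, Trf, Lgals3bp, Cp, Trem2, Ptgds, Aldh1l1, Tmem176a, Lyz1 and Rn7s1, the RNA of the signal recognition particle. Lgals3bp, a secreted galectin ligand, read 3.48, 0.50 and 0.15, but its second probe read -4.45, -4.35 and -4.82. All 20 kept a range above 1 after quantile normalisation, and 5 differed by more than 1 between controls 2 and 3.

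**Figure D4:**
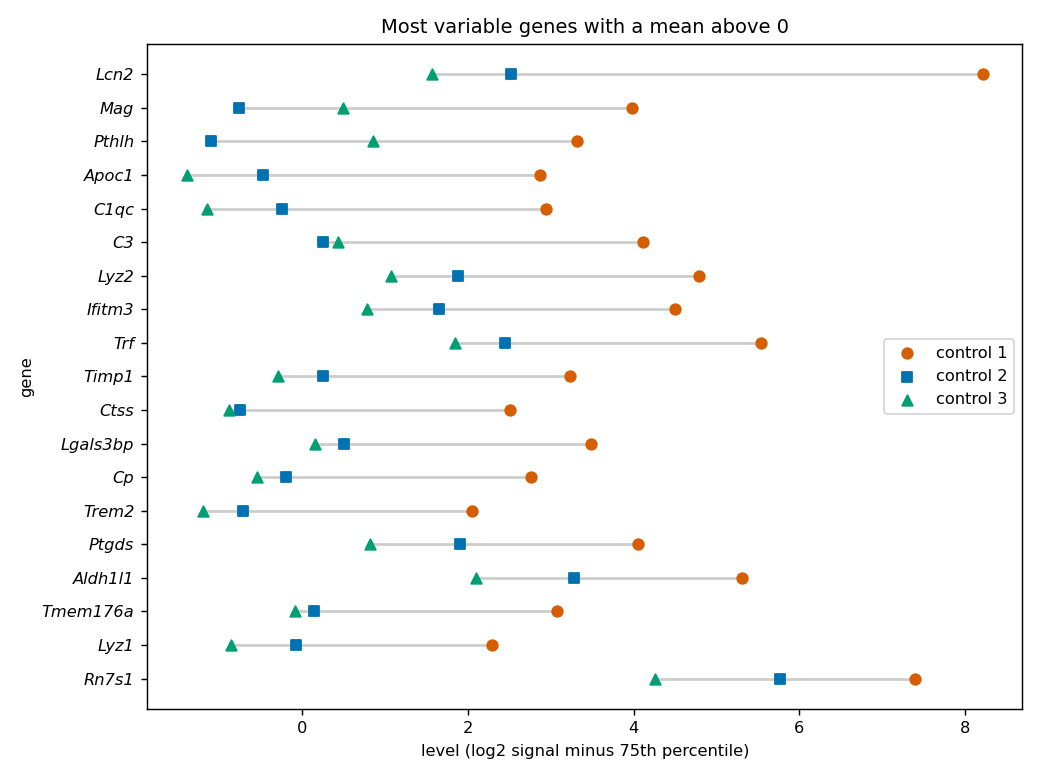
Level in each control culture (log2 minus the 75th percentile, horizontal axis) of named genes from the 20 with the largest range between cultures among those with a mean above 0, 1 row per gene and 1 marker per culture. Control 1 lies to the right in every row drawn, and Lcn2 spans the most, from 1.56 to 8.21.

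The lists in which control 1 deviated most upward were those of microglia, reactive astrocytes, interferon response and myelinating oligodendrocytes. Among 18 measured reactive astrocyte genes 14 had a range above 1, against 21.9% of all measured genes. Control 1 was the highest in 16 of them, against 46.8%. Their median deviation was 1.22 in control 1, -0.55 in control 2 and -0.61 in control 3. For microglia genes those deviations were 1.51, -0.60 and -1.18. For astrocyte genes they were 0.59, -0.18 and -0.49. For pan-neuronal genes they were -0.11, 0.10 and -0.01 on the brightest probes, while some dimmer probes of those genes varied far more. Over all measured genes they lay between -0.04 and 0.05. After quantile normalisation the control 1 deviations were 1.23 for reactive astrocyte, 1.55 for microglia and 0.52 for astrocyte genes. Without control 1, none of the 18 reactive astrocyte genes differed by more than 1, against 2.15% of all measured genes. The lower signal of array 1 stands beside all of these values, and its part in them was not tested.

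**Figure D5:**
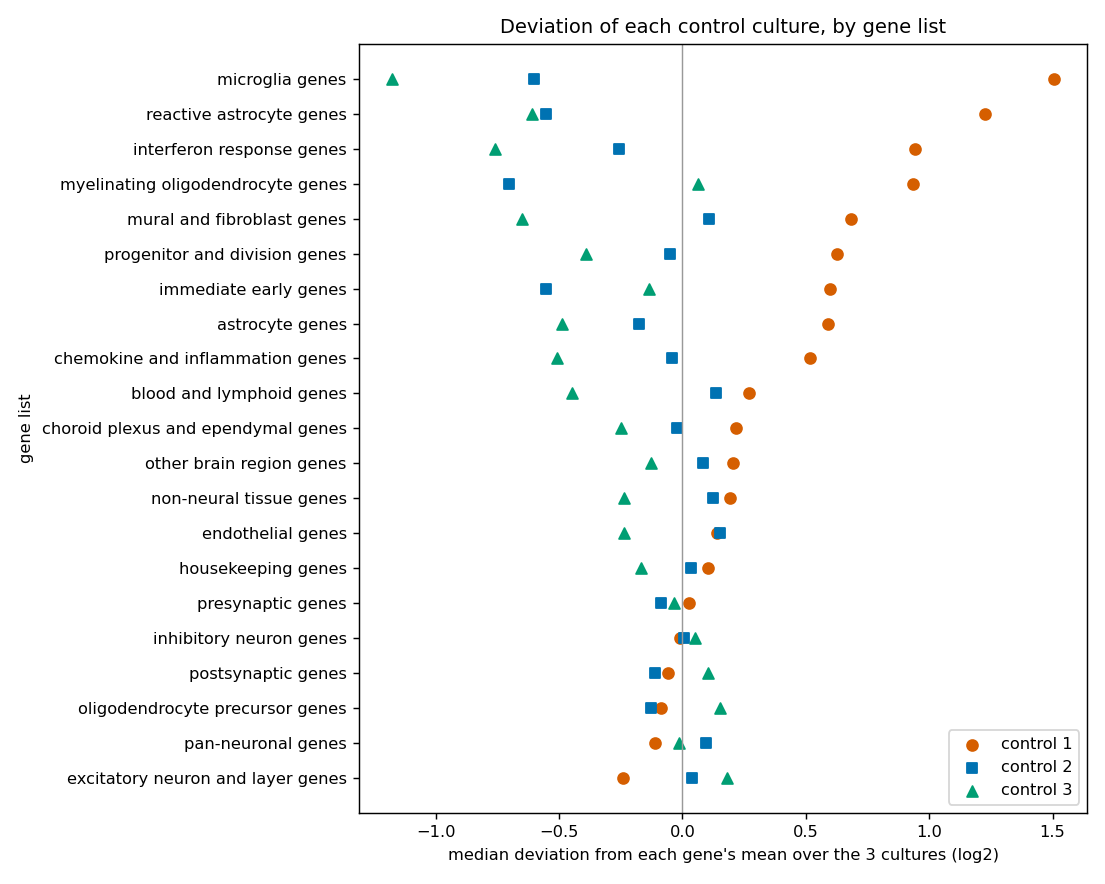
Median deviation of each control culture from the mean of the 3 cultures (log2, horizontal axis), taken over the measured genes of each list, with 1 marker per culture. Control 1 lies at 1.51 for microglia genes and 1.22 for reactive astrocyte genes, and pan-neuronal genes lie between -0.11 and 0.10.

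Interferon response genes were dim and were mostly highest in control 1. Such genes are switched on by the ISGF3 complex, which contains Stat2 and Irf9, at an element of repeated GAAA letters. Of 20 genes 15 passed on all 3 arrays, against 76.5% of named genes, with a median level of -1.70. A range above 1 was seen in 11, against 21.9% of all measured genes and 36.6% of the 3856 with the lowest levels. Control 1 was the highest in 13 of the 15, against 46.8%. Controls 2 and 3 differed by more than 1 in 3 of the 15, against 2.15%. Ifitm3, a membrane protein that restricts virus entry, read 4.50, 1.65 and 0.78. Irf7, a regulator of interferon genes, read -0.25, -2.94 and -3.33, and Bst2, tetherin, 1.03, -0.82 and -1.51. Isg15, a ubiquitin-like modifier, read -0.05, -0.99 and -1.93. Stat2 and Irf9 themselves moved less, at 1.01 ± 0.20 (SD, n = 3) and 0.10 ± 0.34. Ifit1, an RNA-binding effector, was well above background on 1 array, control 1.

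The promoters of 3 of these genes are shown because their letters hold the element and their signal was highest in control 1; they were picked after those values were seen. Capitals mark matches, overlapping ones included, on either strand, to GAAA followed by any 2 bases and GAAA again, in 60 bases taken from upstream of the start, in RefSeq sequence of build GRCm38.p6, read in the direction of the gene. Isg15 is taken from chr4:156200857-156200916 on the minus strand, Ifit1 from chr19:34640765-34640824 on the plus strand and Rsad2 from chr12:26456533-26456592 on the minus strand.
Isg15: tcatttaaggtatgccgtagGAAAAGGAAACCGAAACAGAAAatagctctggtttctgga
Ifit1: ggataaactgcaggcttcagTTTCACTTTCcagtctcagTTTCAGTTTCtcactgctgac
Rsad2: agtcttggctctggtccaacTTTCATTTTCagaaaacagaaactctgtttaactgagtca
Rsad2, an antiviral enzyme, read -2.30, -4.84 and -4.89, and Ifit1 has no order between controls 2 and 3, where it was not above background. In the 250 bases before the start, the element was found in 7 of 17 promoters of 15 interferon response genes (41.2%) and in 2.98% of all 32851 promoters of the RefSeq table. A match of letters is a description and not evidence of binding.

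Immediate early genes, which neurons induce within minutes of synaptic activity, were all measured and were mostly lowest in control 2. All 21 passed on all 3 arrays, with a median level of 1.16. Jun and Junb, subunits of the AP-1 factor, averaged 4.04 ± 0.12 (SD, n = 3) and 4.01 ± 0.22. Arc, a synaptic capsid-like protein, read 3.53, 1.32 and 2.43, Nr4a1, an orphan nuclear receptor, 4.27, 1.46 and 2.79, and Fos, the partner of Jun, 1.82, 0.39 and 0.62. Npas4, a factor specific to neuronal activity, read 0.51, -1.12 and -0.47. Control 1 was the highest in 18 of the 21 and control 2 the lowest in 14, against 46.8% and 20.5% of all measured genes. A range above 1 was seen in 13, against 21.9%. Between controls 2 and 3, 4 of the 21 differed by more than 1, against 2.15%. The median deviations were 0.60, -0.55 and -0.13, and 0.59, -0.55 and -0.13 after quantile normalisation. These values rest on the brightest probe of each gene. Other measured probes of Nr4a2, Nr4a3 and Junb peaked in control 2 or control 3, where the brightest peaked in control 1. For Egr3 the brightest probe and the other measured probe both peaked in control 3.

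The upstream sequence of these genes was searched for the cyclic AMP response element, the site of the factor CREB that couples calcium entry to their transcription. The full palindrome TGACGTCA was found in 1 of 27 promoters of 17 immediate early genes, that of Dusp1, and in 1.55% of all promoters. Its core TGACG, which overlaps the palindrome and was searched for after it, was found in 15 of the 27 promoters (55.6%) and in 17.8% of all promoters. Several of the 27 are alternative starts of 1 gene and share bases. The promoters of Npas4, Nr4a1 and Dusp1 are shown with matches to the core on either strand in capitals, Dusp1 with the palindrome. Npas4 is taken from chr19:4990111-4990170 on the minus strand, Nr4a1 from chr15:101266596-101266655 on the plus strand and Dusp1 from chr17:26508576-26508635 on the minus strand.
Npas4: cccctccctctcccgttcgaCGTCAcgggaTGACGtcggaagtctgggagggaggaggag
Nr4a1: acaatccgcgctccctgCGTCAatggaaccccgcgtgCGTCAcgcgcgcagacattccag
Dusp1: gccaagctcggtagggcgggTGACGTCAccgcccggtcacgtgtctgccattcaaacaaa

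Chemokines and cytokines were mostly below the 75th percentile, and 4 of 17 measured genes were above it. Of 20 genes 17 passed on all 3 arrays, with a median level of -1.71, while Il6, Il1a and Cxcl2 were well above background on none of the arrays, 3 of 20 against 17% of named genes. Cx3cl1, the fractalkine that neurons present to microglia, was bright and even on its brightest probe, at 6.35, 6.39 and 6.37. Its other measured probe read -3.02, -3.75 and -4.04, so both level and evenness differed between probes. C4b, a complement protein, read 4.32, 2.30 and 2.09, and Vcam1, a cell adhesion protein, 2.28, 2.01 and 1.60. The range exceeded 1 in 12 of the 17 measured genes, against 21.9% of all measured genes, and control 1 was the highest in 10, against 46.8%. Between controls 2 and 3 the difference exceeded 1 in 3 of the 17, against 2.15% of all measured genes.

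Genes of the sex chromosomes differed between the cultures. Xist, the RNA of the inactive X chromosome, read -2.46, -7.51 and -0.95, and was not well above background in control 2. The Y-linked gene Eif2s3y read -0.64, 0.72 and -0.06, and Uty, another, -3.51, -0.93 and -2.74. Ddx3y read -3.21, -2.40 and -2.62, and Kdm5d -1.08, -0.32 and -0.04. Control 2 thus had the lowest Xist and was the highest in 3 of the 4 measured Y-linked genes, Kdm5d being highest in control 3, while Usp9y and Zfy1 were well above background on none of the arrays.

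The 10 steadiest named genes with a mean above 3 had an SD between 0.0044 and 0.0139. They were Ythdf1, Fnbp1, Snrpd1, Mmd2, Npdc1, Gdf1, Uqcrb, Tomm5, Rnf220 and Ddx24. Ythdf1, a reader of methylated RNA, read 4.07, 4.06 and 4.06, and Snrpd1, a protein of the spliceosome, 4.69, 4.69 and 4.70. None of the 10 is in the housekeeping list. After quantile normalisation their ranges lay between 0.048 and 0.37. The other Ythdf1 probe read 0.34, 0.92 and 1.33. Other measured probes of Fnbp1, Rnf220 and Ddx24 had ranges from 0.54 to 0.97, while those of Uqcrb and Tomm5 had 0.10 and 0.02. The evenness of the 10 thus belongs to the scaling used and, for some of them, to the probe.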

How the data were processed

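Spot intensity was deposited as scanner output for each array, and per the file headers and the submitters' processing notes it was made with Agilent Feature Extraction 10.7.1.1. The headers describe a processed signal that is background-subtracted and corrected for trends within the array, though for control 1 it is not clear that the trend step was applied. Probe positions are on mm9, and a spot is called well above background past 13 background SDs. The authors also deposited log2 values, whose column medians were 5.91 and whose rank correlation with the processed signal was 0.997, 1 and 1 in controls 1, 2 and 3; 3 columns of that table were not used. From the scanner files, control and outlier spots were left out, spots of a probe were averaged as log2, and each array's 75th percentile was subtracted. Probes were named through RefSeq (GRCm38.p6), with 33903 matched on accession, 9458 on symbol, 488 on an older name and 12756 left as in the file; predicted genes, Riken clones and accessions were not counted as named. A gene's brightest probe stood for it. No test was made, since 1 group was described. The members and the 22 gene lists (473 genes, 472 on the array) were chosen with earlier results of these data known, and the restriction to named genes was settled after the files had been read. The text names the 20 brightest genes, the 3 brightest and the absent members of each list (at most 6), the 20 most variable with a mean above 0, the 10 most variable in the lists, the 10 steadiest with a mean above 3, and a fixed list of common markers; further list members, and all members of the promoter searches, were named after their values were seen. The number of arrays, 3, limits the precision. Alternatives were quantile and normexp (offset 50) normalisation in limma 3.58.1 with R 4.3.3, the authors' table, other percentile, probe and background rules, and leaving out each array. Counting of ranges was tested on simulated data. Tables were made with pandas 2.3.3 in Python 3.11.15. Some genes that the naming rule selects are not reported here.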

Additional observations from a re-analysis of the deposited data

How the results depend on the processing

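No paired analysis was possible because only 1 group was described and no test was made. The number of genes with a range above 1, 3379 as reported, stayed within 1.5 times that under quantile normalisation (3311, with the brightest probe chosen again), normexp correction (2329), the percentile over detected probes (3435), the authors' table (3245), the mean of a gene's probes (3016) and without probes holding a shared run (an alternative added after the data were seen). Without the filter on background it was 5542. Leaving out 1 array gave between 390 and 2925 genes, the lowest without control 1, and a count over 2 arrays is lower by construction. The median SD, 0.315 as reported, was 0.316 with the percentile over detected probes, 0.295 with normexp, 0.303 in the authors' table, 0.301 with the mean of probes, 0.373 without the filter, and between 0.169 and 0.359 with 1 array left out, lowest without control 1. Where a value moved otherwise, the cause was not tested. Counts of detected probes and genes stayed within 1.5 times under the alternatives tried. Of 152 ranges of named genes, 50 fell to 1 or less without control 1, 4 without control 2, 11 without control 3, 5 with normexp and 4 with quantile normalisation. Levels depend on the scaling and the probe rule: 130 of 152 named levels and 21 of 22 list medians moved by more than the SD between cultures with the percentile over detected probes, and 67 and 13 with the mean of probes. The postsynaptic median, for instance, lay between 0.51 and 2.95 over the alternatives. With 3 arrays of 1 group and no known dissection per culture, no difference between cultures could be assigned to biology or technique, and signals below the background limit have no order.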
